A study of Rattus norvegicus with 8 samples.

Results

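The barcodes described here are droplets of rat liver immune cell libraries in which the plasmacytoid dendritic cell receptor Siglech was counted with at least 2 unique molecular identifiers (UMIs, 1 per captured transcript). They also held no UMI of the T cell receptor genes Cd3d, Cd3e and Cd3g, none of the B cell gene Cd79a and none of the Kupffer cell gene Clec4f, at least 500 UMIs in all, and less than 20% of UMIs from mitochondrially encoded genes. Of 32170 barcodes that passed the limits on total and mitochondrial UMIs, 644 (2.0%) met these criteria and are called gated barcodes below. The barcodes were thus chosen by measured values, and the levels of its 6 genes in the gated barcodes, given below, are a description and not a result.

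Immune cells had been collected by density gradient from the livers of 4 male Han Wistar rats, 2 fed a choline-sufficient (CSAA) and 2 a choline-deficient (CDAA), l-amino acid-defined diet. Each animal gave 1 Chromium library of fresh cells and 1 of cells stored for 3 weeks in DMSO, so that there were 8 libraries of 18338700 to 26471843 UMIs. The 4 groups were fresh CSAA, fresh CDAA, DMSO CSAA and DMSO CDAA, with 2 animals each. Fresh cells were processed before and preserved cells after storage, and the day of processing and preservation cannot be told apart.

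Plasmacytoid dendritic cells are rare blood and tissue cells that sense viral RNA and DNA in endosomes through Tlr7 and Tlr9 and can release large amounts of type I interferon. Their development depends on the transcription factor Tcf4, and they also need Irf8, Spib and Runx2. Siglech, a sialic acid binding lectin, signals through the adaptor Tyrobp and is a common surface marker of these cells in rodents. Kmo (kynurenine 3-monooxygenase), Pygm (a glycogen phosphorylase) and the membrane glycoprotein Gpm6b were the other markers by which the cells had been named in these data.

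The gated barcodes were compared by Kmo, Pygm, Gpm6b and Irf8. The gate had not used these genes, but the cells had been named by them in these data. The comparison is therefore a description and no independent check of the label. At least 2 UMIs of Kmo, Pygm and Gpm6b together were present in 210 of 644 gated barcodes (32.6%), with 16.8% to 48.8% per library, and in 522 of 20585 passing barcodes without a Siglech UMI (2.54%). The gated barcodes were not uniform. Of them, 380 (59.0%) had exactly 2 Siglech UMIs, 137 (21.3%) had 3 to 4 and 127 (19.7%) had 5 or more.

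The share with at least 2 UMIs of the 3 marker genes was 10.8% at 2 Siglech UMIs, 42.3% at 3 to 4, 87.7% at 5 to 9 and 85.7% at 10 or more. Just outside the gate, 1996 barcodes within the other limits had 1 Siglech UMI, and 3.21% of them carried the marker genes. Irf8 stood at 290 UMIs per 1000000 UMIs (CPM) in the barcodes with 1 Siglech UMI, at 406 CPM with 2, at 966 CPM with 3 to 4 and at 1781 CPM with 5 to 9. Most gated barcodes, those at the minimum of 2, thus had marker levels nearer to barcodes outside the gate than to those with 5 or more, and the group is called by its gate and not by a cell type. The median number of UMIs per barcode was higher in the upper classes as well, at 3250 to 5170 per library for 2 Siglech UMIs and 4119.5 to 8783.5 for 5 to 9.

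**Figure D1:**
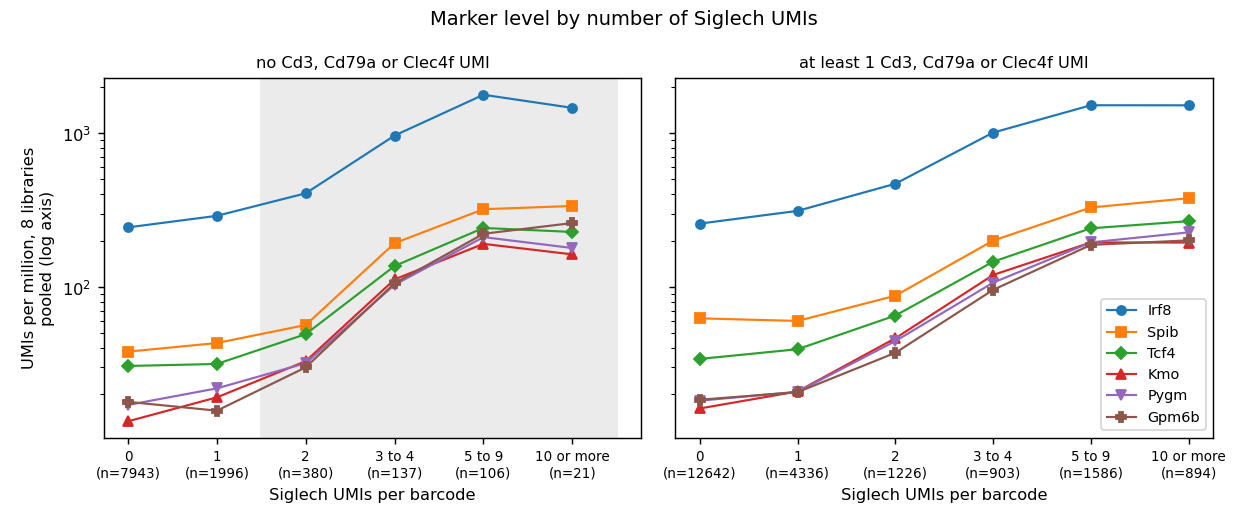
Level of Irf8, Spib, Tcf4, Kmo, Pygm and Gpm6b (CPM over the pooled 8 libraries, log axis) by the number of Siglech UMIs per barcode, within (left) and outside (right) the limits on Cd3, Cd79a and Clec4f; n is the number of barcodes and the shaded classes are the gated barcodes. All 6 genes lie low at 0 to 2 Siglech UMIs and high from 5 on, in both panels.

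The limits on other lineages removed most barcodes with much Siglech. Of 5253 passing barcodes with at least 2 Siglech UMIs, 4609 (87.7%) were removed, and 4388 (83.5%) carried at least 1 Cd3 UMI. Among the 2607 barcodes with 5 or more Siglech UMIs, 127 (4.87%) were gated. At 5 to 9 Siglech UMIs, 91.7% of 1586 removed and 87.7% of 106 gated barcodes had at least 2 UMIs of Kmo, Pygm and Gpm6b. Results are therefore also given for all 2607 barcodes with at least 5 Siglech UMIs and no limit on other lineages, a set that was chosen after its values were seen.

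The Cd3 UMIs of the barcodes with at least 5 Siglech UMIs were mainly Cd3g. Cd3g made up 61.2% to 91.3% of their Cd3d, Cd3e and Cd3g UMIs per library, with a mean of 72.7%. In barcodes without Siglech the share was 35.6% to 50.5%, and in barcodes of 1 to 100 UMIs, which hold free RNA, 36.6% to 54.5%. The ranges do not overlap. Over animals, the share was higher by 30.6 ± 9.31 percentage points than in barcodes without Siglech. Against barcodes of 1 to 100 UMIs it was higher by 28.3 ± 9.79 points (SD, n = 4 animals, both higher in 4 of 4). The gate uses the Cd3 genes, and this set was chosen after its values were seen. These values are therefore a description, and no test is given. Cd3g stood at 324 ± 121 CPM with at least 5 Siglech UMIs and at 210 ± 122 CPM without Siglech (SD, n = 8 libraries), whereas Cd3d stood at 61.8 ± 33.9 and 145 ± 87.2 CPM and Cd3e at 57.5 ± 33.1 and 152 ± 90.2 CPM.

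**Figure D2:**
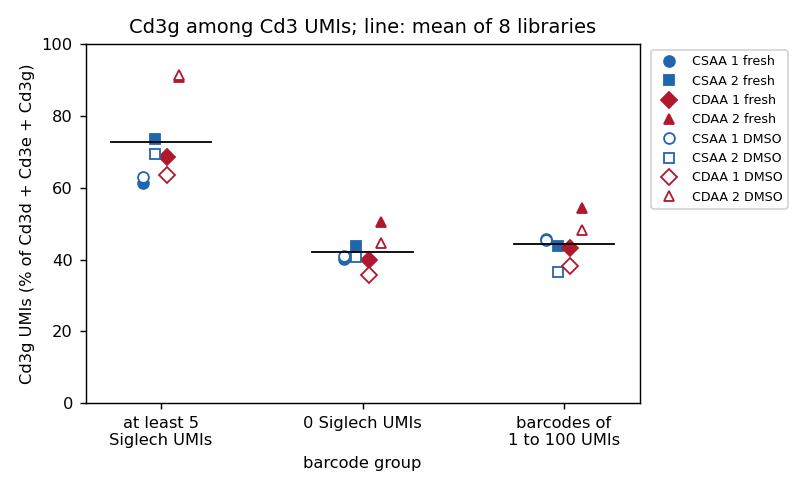
Share of Cd3g among the UMIs of Cd3d, Cd3e and Cd3g (%) in barcodes with at least 5 Siglech UMIs, in passing barcodes without a Siglech UMI and in barcodes of 1 to 100 UMIs; each point is a library, filled for fresh and open for DMSO, and the line is the mean of the 8 libraries. All points of the first group lie at or above 61.2%, and all others at or below 54.5%.

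Transcripts of other cell types were present in nearly every gated barcode. The macrophage and monocyte lysozyme gene Lyz2 was counted in 643 of 644 (99.8%) and the natural killer cell gene Nkg7 in 587 (91.1%), compared with 99.3% and 85.7% of the barcodes without Siglech. In the other direction, 3466 passing barcodes had at least 20 Nkg7 UMIs, and 306 of them (8.83%) carried at least 2 Siglech UMIs. Their median depth was 4787 to 5903 UMIs per library, close to the 3679 to 6035 UMIs of the gated barcodes. At 5 or more Siglech UMIs, 26 such barcodes remained. Siglech stood at 166 CPM in barcodes of 1 to 100 UMIs, at 594 ± 147 CPM in gated barcodes and at 940 ± 82.6 CPM with at least 5 UMIs (n = 8 libraries). No gated barcode sequence was gated in a second library, and 19 gated sequences passed the limits in another library.

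The marker genes of plasmacytoid dendritic cells were compared by role, as a description. Among transcription factors, Irf8 was 5.86 times, Tcf4 7.43 times, Spib 5.98 times, Bcl11a 8.31 times, Runx2 4.28 times and the interferon regulatory factor Irf7 3.67 times as high in CPM with at least 5 Siglech UMIs as without Siglech, in 8 of 8 libraries each. The endosomal RNA sensor Tlr7 was 3.58 times and the endolysosomal exonuclease Pld4 3.55 times as high, whereas the DNA sensor Tlr9 had 8 UMIs in all 2607 barcodes. Bst2 (tetherin) stood 3.39 times, the gut homing receptor Ccr9 6.88 times and the growth factor receptor Flt3 9.62 times as high. Irf8 stood at 925 ± 349 CPM in the gated barcodes, at 260 ± 46.8 CPM without Siglech and at 513 ± 126 CPM in all other passing barcodes, which hold the removed Siglech barcodes. Against these others, the gated barcodes had ratios of 1.80 for Irf8, 1.54 for Tcf4, 1.52 for Spib and 1.81 for Ccr9.

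Type I interferon transcripts were nearly absent. Ifna1 and Ifnb1 had 1 UMI each over the 2607 barcodes with at least 5 Siglech UMIs. The granule protease Gzmb stood at 106 CPM with at least 5 Siglech UMIs and at 324 CPM without Siglech, and Dntt, a DNA polymerase of lymphoid precursors, at 1.97 and 5.99 CPM.

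Further genes set the barcodes with at least 5 Siglech UMIs apart in each library. The genes with at least 50 CPM in these barcodes in each library were ranked by the lowest ratio over 8 libraries. This floor was set in the group where the genes are high, so the ranking is a description. Bricd5 came first, at 94.5 CPM against 5.95 CPM without Siglech, followed by Kmo, Tm6sf2, Pygm, BC028528 and Ptcra. Kmo stood at 194 CPM against 15.9 CPM, and Pygm at 209 CPM against 18.5 CPM. Ptcra, the invariant chain of the pre-T cell receptor, stood at 138 CPM against 16.4 CPM. Kynu, the enzyme that acts after Kmo in kynurenine breakdown, stood at 55.3 CPM against 6.82 CPM, and Ido1, which opens the pathway, had no UMI. Of the other glycogen phosphorylases, the liver form Pygl did not follow Pygm, at 22.8 and 22.3 CPM, and the brain form Pygb had 3 UMIs. For gated against other passing barcodes, the same ranking was led by LOC100361706, with a lowest ratio of only 1.29.

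The share of gated barcodes varied with the animal. In fresh libraries it was 1.73% in CSAA replicate 1 (95% Wilson interval 1.39% to 2.15%), 0.727% in CSAA replicate 2 (0.509% to 1.04%), 2.21% in CDAA replicate 1 (1.80% to 2.70%) and 2.1% in CDAA replicate 2 (1.71% to 2.58%). After preservation it was 2.42% (1.96% to 2.98%), 0.758% (0.518% to 1.11%), 3.02% (2.53% to 3.61%) and 2.96% (2.49% to 3.51%), in the same order. Intervals cover counting error only. CSAA replicate 2 held the smallest share in both conditions, with 30 and 26 gated barcodes.

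Preserved libraries had a share higher by 0.598 ± 0.385 percentage points (SD, n = 4 animals, higher in 4 of 4; exact permutation test of sign changes, two-sided, p = 0.13, the smallest possible). For the barcodes with at least 5 Siglech UMIs the difference was 2.21 ± 1.2 points, from a fresh mean of 7.05%, again in 4 of 4 animals (exact permutation, p = 0.13). It remained when each barcode was thinned to 1000 UMIs, where the share with a Siglech UMI was higher by 1.70 ± 0.451 points in 4 of 4 animals (exact permutation, p = 0.13). Barcodes with fewer UMIs were left out of this last comparison. With a gate of at least 1 Siglech UMI the difference was smaller, at 0.279 ± 0.226 points, in 4 of 4 animals (exact permutation, p = 0.13).

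By diet, the fresh share was 1.23% ± 0.711 in CSAA and 2.15% ± 0.0760 in CDAA animals, and the preserved share 1.59% ± 1.17 and 2.99% ± 0.0458 (SD, n = 2 each). The groups did not overlap (exact permutation test, two-sided, p = 0.333 for both, the smallest that 2 against 2 animals allow). The order depended on the gate. Without the limits on Cd3, Cd79a and Clec4f, 19.5% and 13.0% of fresh CSAA barcodes had at least 2 Siglech UMIs. In fresh CDAA animals the values were 12.9% and 12.9%. After preservation they were 23.0% and 16.7% in CSAA and 18.7% and 14.9% in CDAA animals. The limits removed 91.1% and 94.4% of these barcodes in fresh CSAA and 82.8% and 83.8% in fresh CDAA animals. For at least 5 Siglech UMIs the fresh mean was 7.82% in CSAA and 6.29% in CDAA animals, and the groups overlapped. Thinned to 1000 UMIs, the difference between the diets was 0.478 points fresh and 0.551 points preserved, with overlapping groups.

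**Figure D3:**
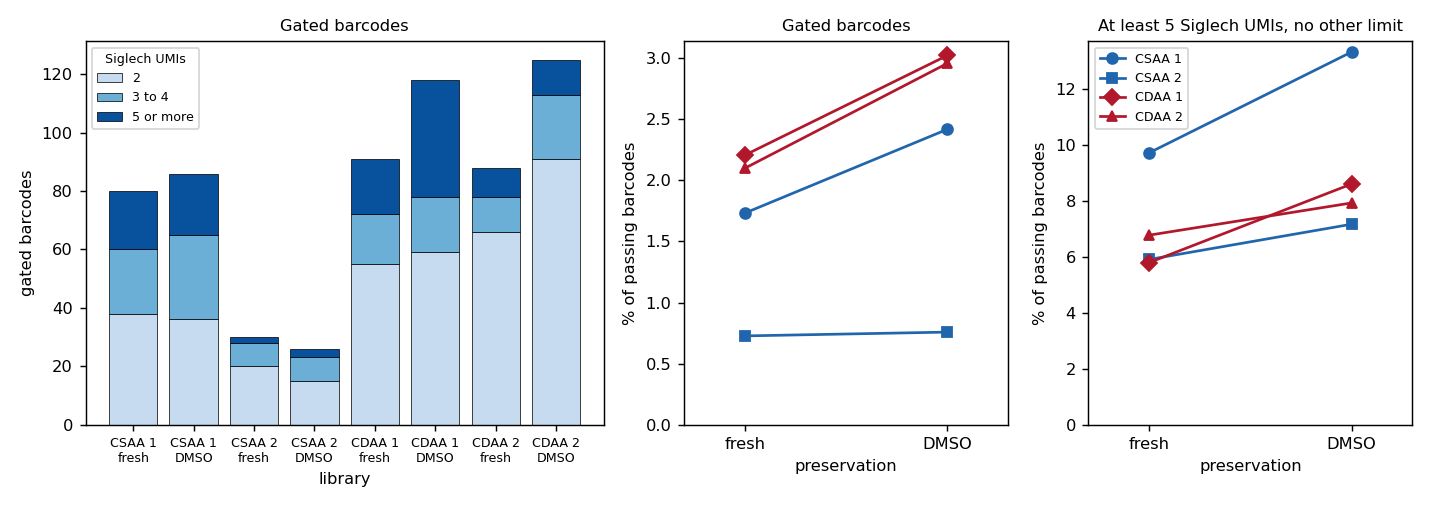
Number of gated barcodes per library, stacked by their Siglech UMIs (left), their share of passing barcodes in % (middle), and the share of barcodes with at least 5 Siglech UMIs without the limits on other lineages (right); lines join the fresh and DMSO library of each animal. All 4 lines rise in both share panels, but CDAA animals lie highest in the middle panel and CSAA replicate 1 highest in the right panel.

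Quality measures of the gated barcodes were compared between fresh and preserved cells over the 4 animals. The median UMI count was 4000 to 5608 in fresh and 3679 to 6035 in preserved libraries, and the difference of 23.8 ± 487 UMIs had no common direction (higher in 2 of 4; exact permutation test, p = 0.875). In barcodes with at least 5 Siglech UMIs the median was lower by 519 ± 45.1 UMIs, in 4 of 4 animals (exact permutation, p = 0.13). The number of genes expected in 1000 UMIs differed by -9.96 ± 9.56 genes around a fresh mean of 540 (exact permutation, p = 0.25). The median percentage of mitochondrial transcripts was 6.67% ± 1.73 in fresh and 5.97% ± 2.36 in preserved gated barcodes (SD, n = 4; exact permutation, p = 0.25). CSAA replicate 2 stood apart in this measure with 9.26% fresh and 9.49% preserved, whereas the other animals had 4.61% to 5.93%. With at least 5 Siglech UMIs the percentage differed by -0.742 ± 0.449 points, and in other passing barcodes by -0.779 ± 0.485 points. Both differences were negative in 4 of 4 animals (exact permutation, p = 0.13 for both).

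Gene levels were compared between fresh and preserved gated barcodes on UMIs summed per library, 106569 to 796943 UMIs each. In such sums, fewer cells of a type and less RNA per cell cannot be told apart. Early response genes, the immediate early and feedback genes that cells transcribe within minutes of a stimulus without new protein, made up 10 of the 17 genes that changed. Of 4505 genes tested, 17 (0.377%) were called, 12 higher and 5 lower after preservation (edgeR quasi-likelihood test blocked by animal, at least 2-fold and a p under 0.05 after Benjamini-Hochberg adjustment), and 15 of the 17 changed alike in 4 of 4 animals. Of the 39 early response genes in the files, 25 were tested, and 10 rose and none fell, with a median log2 fold change of 1.13 against -0.00183 over all genes tested.

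Fos, Fosb, Jun and Junb encode subunits of the AP-1 transcription factor. Fos was at 65.4, 13.5, 19.3 and 23.2 CPM in the fresh libraries of CSAA replicates 1 and 2 and CDAA replicates 1 and 2, and at 722, 1680, 693 and 1021 CPM in the preserved libraries in the same order. Fosb was at 17.6, 0, 0 and 1.66 CPM fresh and at 247, 976, 319 and 355 CPM preserved. Jun was at 32.7, 27.0, 12.3 and 43.2 CPM fresh and at 369, 1220, 278 and 424 CPM preserved. Fresh and preserved libraries did not overlap for any of the 3 genes, and CSAA replicate 2, the library with the fewest gated barcodes, had the highest preserved value of each. The log2 fold changes were 6.25 ± 0.39 for Fosb, 4.87 ± 0.26 for Fos, 3.93 ± 0.23 for Jun and 1.53 ± 0.17 for Junb (SE; edgeR adjusted p = 1.74e-08, 4.17e-09, 6.32e-09 and 6.13e-05).

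Dusp1, a phosphatase that switches off MAP kinases, went from 83.1, 47.3, 68.4 and 36.5 CPM fresh to 383, 216, 192 and 341 CPM preserved, a log2 fold change of 2.30 ± 0.22 (edgeR adjusted p = 5.53e-06). Zfp36, an RNA-binding protein that speeds the decay of cytokine transcripts, went from 126, 87.8, 137 and 121 CPM to 351, 488, 323 and 355 CPM, by 1.58 ± 0.16 (edgeR adjusted p = 1.01e-05). Both gene levels were separated between the conditions without overlap. Rgs1 and Rgs2, which shorten signalling by G protein-coupled receptors, rose by 1.94 ± 0.26 and 1.82 ± 0.37 (log2, SE, edgeR adjusted p = 0.00057 and 0.0328). The zinc finger factor Klf6 rose by 1.2 ± 0.20 and the antiproliferative gene Btg2 by 1.03 ± 0.14 (edgeR adjusted p = 0.00548 and 0.000458). Rgs2 had 1, 0, 4 and 13 UMIs in the fresh libraries. Among alternative analyses, the calls held in 9 of 11 for Rgs1, 5 of 8 for Rgs2, 8 of 11 for Klf6 and 6 of 11 for Btg2. The chemokine gene Ccl3 rose in 4 of 4 animals, from 156, 122, 263 and 264 CPM to 634, 948, 644 and 1294 CPM (log2 fold change 2.04 ± 0.17, edgeR adjusted p = 1.43e-06).

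In the preserved libraries the AP-1 transcripts were spread over the gated barcodes. Fos was counted in 78 of 86, 26 of 26, 109 of 118 and 119 of 125 of them, against 20 of 80, 2 of 30, 9 of 91 and 11 of 88 in the fresh libraries. No single barcode held more than 10.1% of the preserved Fos UMIs of its library.

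Of the 12 genes that rose, 9 matched the RefSeq promoter table (build GRCr8; the counts were made on another build, so the coordinates belong to the table). Fos, Jun and Ccl3 were not matched. The 250 bases before each start site were searched on both strands for TGACGTCA, the full cyclic AMP response element, and for the CArG box, the binding motif of serum response factor. These are the motifs through which immediate early genes are commonly switched on. Each was found in 2 of the 9, and in 1.59% and 1.5% of all 33469 promoters of the table. The 4 stretches are shown 5′ to 3′ on the strand of the gene with the motif in capitals, because these genes rose together.

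Dusp1 (chr10:17184703-17184762, plus strand): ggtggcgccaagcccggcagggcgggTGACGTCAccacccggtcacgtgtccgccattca
Btg2 (chr13:48087858-48087917, minus strand): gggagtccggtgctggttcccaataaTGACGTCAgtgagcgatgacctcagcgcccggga
Zfp36 (chr1:92799109-92799166, minus strand): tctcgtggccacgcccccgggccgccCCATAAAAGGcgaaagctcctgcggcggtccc
Klf6 (chr17:69458644-69458705, minus strand): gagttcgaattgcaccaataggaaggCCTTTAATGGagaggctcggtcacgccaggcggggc

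The motif lay 124 bases before the start in Dusp1, 201 in Btg2, 32 in Zfp36 and 201 in Klf6. A match describes these letters only.

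The 5 genes that were lower after preservation were the receptor gene Cd300le, the chemokine gene Ccl1, the heme oxygenase gene Hmox1, the semaphorin receptor gene Plxnb2 and Ndufc1, a subunit of respiratory complex I. Plxnb2 fell from 98.2, 27.0, 87.8 and 113 CPM to 39.2, 9.38, 37.2 and 51.4 CPM in CSAA replicates 1 and 2 and CDAA replicates 1 and 2 (log2 fold change -1.19 ± 0.19, edgeR adjusted p = 0.00374), with lower values in each animal but overlapping groups. Hmox1 fell by 1.21 on the log2 scale (SE 0.19, edgeR adjusted p = 0.00278). In fresh CDAA replicate 2, 1 barcode held 124 of its 188 UMIs. Ccl1 and, among the genes that rose, Ccl24 did not change alike in every animal. In fresh CDAA replicate 2, 1 barcode held 171 of 189 Ccl1 UMIs, and in preserved CSAA replicate 1, 1 barcode held 43 of 79 Ccl24 UMIs.

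Apart from the early response list and Ccl3 among 9 tested cytokine genes, no list had a called gene. This holds for the 18 tested plasmacytoid dendritic markers, of which 17 had a positive log2 fold change (median 0.26), and for 18 interferon-stimulated genes (median -0.34), 12 genes of MHC class II and antigen presentation, 10 heat shock genes and 13 mitochondrially encoded genes. Irf8 stood at 808 ± 286 CPM fresh and 1041 ± 407 CPM preserved (log2 fold change 0.34 ± 0.11, edgeR adjusted p = 0.219). Kmo stood at 91.4 ± 40.4 and 93.8 ± 44.4 CPM and Tcf4 at 114 ± 42.0 and 115 ± 59.5 CPM (SD, n = 4). Pygm was higher in 4 of 4 animals, at 64.2 ± 34.1 and 112 ± 33.2 CPM, without passing the test (0.72 ± 0.18, edgeR adjusted p = 0.0872).

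In the set with at least 5 Siglech UMIs, 37 of 8371 genes (0.442%) were called, 21 higher and 16 lower. Of the 17 genes above, 10 were called there too, each in the same direction, which is 58.8% of the first and 27.0% of the second list. Jun rose by 4.37 ± 0.16, Fos by 4.53 ± 0.33 and Fosb by 4.78 ± 0.38 (log2, SE). Egr1 and Ppp1r15a, a further early response pair, rose by 1.22 ± 0.23 and 1.21 ± 0.15, whereas Btg2 was at 0.53 ± 0.07, below 2-fold, and Hmox1 at -0.26 ± 0.20 (edgeR adjusted p = 0.52). Ccl24 had the opposite sign there (-0.32). None of 21 tested plasmacytoid dendritic markers was called with this gate (median log2 fold change 0.03). Kmo was at 194 ± 6.78 CPM fresh and 194 ± 21.7 CPM preserved. Pygm, at 177 ± 41.3 and 241 ± 32.8 CPM (SD), and Bcl11a, at 90.9 to 107 CPM fresh and 119 to 142 CPM preserved (n = 4), were higher in 4 of 4 animals and below 2-fold (edgeR adjusted p = 0.00469 and 0.00535).

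The same genes were higher after preservation in the other passing barcodes and in barcodes of 1 to 100 UMIs. The ratio of the preserved to the fresh mean CPM of Fos was 33.9 in gated barcodes, 20.7 in other passing barcodes, 23.6 with at least 5 Siglech UMIs and 14.1 in barcodes of 1 to 100 UMIs. For Jun it was 19.9, 13.9, 22.4 and 13.3, for Dusp1 4.81, 5.73, 3.97 and 5.37, and for Ccl3 4.37, 3.47, 3.05 and 4.37, in the same order. Natural killer cell markers, led by Ccl5, summed to 11401, 18053, 9428 and 15934 CPM in the fresh and 4478, 14573, 7603 and 17940 CPM in the preserved gated barcodes, lower in 3 of 4 animals. Neutrophil markers, led by S100a8, summed to 221, 122, 312 and 586 CPM fresh and 182, 46.9, 303 and 291 CPM preserved, lower in 4 of 4 animals, as they were in other passing barcodes and with at least 5 Siglech UMIs. The part of free RNA and of other cell types in the values of the gated barcodes was not tested.

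**Figure D4:**
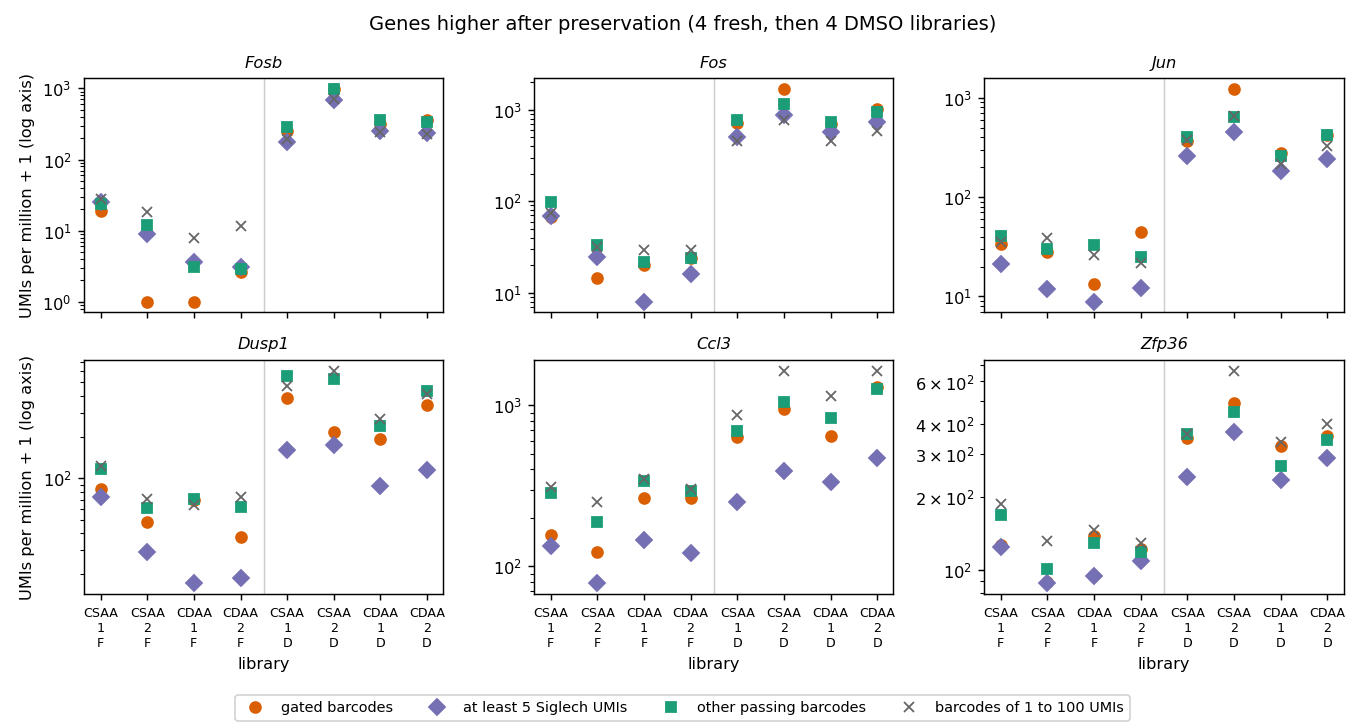
CPM + 1 (log axis) of 6 genes that rose after preservation, in the fresh (F) and DMSO preserved (D) library of each animal, for gated barcodes, barcodes with at least 5 Siglech UMIs, other passing barcodes and barcodes of 1 to 100 UMIs. Every preserved value of Fosb, Fos and Jun lies above every fresh value of the same barcode group.

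Whether the change with preservation differed between gated and other barcodes was tested by the class by preservation term. Of 10674 genes, 8 (0.0749%) were called, 3 with a positive and 5 with a negative term (the log2 fold change with preservation in gated barcodes minus that in other barcodes). A negative term can be a larger fall: Hmox1 had a ratio of preserved to fresh mean CPM of 0.436 in gated and 0.869 in other barcodes. None of the 8 was called under DESeq2. Fos, Fosb, Jun, Dusp1 and Ccl3 were not among the 8 (edgeR adjusted p = 1 each), and the log2 difference was 0.37 ± 0.20 for Fos and -0.08 ± 0.17 for Dusp1. The terms were 6.10 ± 0.91 for the serine protease gene Prss29 and 2.1 ± 0.45 for the chemokine gene Cxcl2 (edgeR adjusted p = 1.42e-07 and 0.00315). Prss29 had 2, 0, 0 and 2 UMIs in the fresh and 0, 0, 0 and 30 in the preserved gated barcodes, so that its count was higher after preservation in 1 animal. It belongs to a list of 6 basophil or mast cell markers. In other passing barcodes this list summed to 91.4, 37.4, 8.20 and 28.8 CPM fresh and 1.04, 0.673, 4.26 and 2.19 CPM preserved, lower in each animal.

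Several of these calls rested on single barcodes. In preserved CDAA replicate 2, 1 barcode held 29 of the 30 Prss29 UMIs of the gated barcodes, and 1 barcode held all 46 UMIs of the chemokine gene Ccl22. In fresh CDAA replicate 1, 1 barcode held 40 of 43 UMIs of the plasma cell gene Mzb1. The chemokine gene Cxcl10 was also called. In fresh CSAA replicates 1 and 2 and CDAA replicate 2, 1 barcode each held 14 of 17, 8 of 9 and 40 of 46 of its UMIs. Cxcl2 was at 17.6, 6.76, 1.76 and 0 CPM in fresh and 106, 9.38, 29.3 and 20.1 CPM in preserved gated barcodes, and 24 of the 46 UMIs of preserved CSAA replicate 1 lay in 1 barcode. With at least 5 Siglech UMIs against barcodes without Siglech, 10 of 9909 genes (0.101%) were called, 9 of them with a negative term, and Cxcl2 was among these with the opposite sign (-1.41 ± 0.18, edgeR adjusted p = 3.59e-05). Fosb was also called, at -1.13 ± 0.17 (edgeR adjusted p = 0.000255). The Fosb ratio of preserved to fresh mean CPM was 36.1 with at least 5 Siglech UMIs and 67.0 without Siglech.

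The diets were compared in the fresh gated barcodes, 2 animals each. Of 4554 genes tested, 12 (0.264%) were called, 11 higher and 1 lower in CDAA animals (edgeR, same thresholds), and the groups did not overlap for any of the 12. The fatty acid binding protein gene Fabp4 had no UMI in CSAA animals and 316 and 772 CPM in CDAA replicates 1 and 2, at least 100-fold higher against a floor of 3 counts over the CSAA group. Osteopontin (Spp1) had none and 84.2 and 138 CPM, at least 20.3-fold higher. The gated sums of fresh CSAA replicates 1 and 2 held 397323 and 148008 UMIs, so both bounds would be lower without replicate 1. The lipoprotein lipase gene Lpl had 1 UMI in CSAA and 119 in CDAA animals (ratio of CPM 55.4, 95% counting interval 9.75 to 2205). RGD1561778 had 2 and 142 UMIs (33.0, 8.98 to 275). These intervals use UMIs pooled over the 2 animals of a diet. They cover counting error only and not the spread between animals or barcodes. In CDAA replicates 1 and 2, 1 barcode each held 22 of 77 and 16 of 42 Lpl UMIs.

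The other genes were counted in both groups. Apoe, the lipid carrier apolipoprotein E, was at 22.7 and 27.0 CPM in CSAA and 223 and 301 CPM in CDAA animals (log2 fold change 3.43 ± 0.35, edgeR adjusted p = 0.00231). Gpnmb, a glycoprotein of lipid-laden macrophages, was at 22.7 and 0 against 246 and 181 CPM (3.70 ± 0.49, adjusted p = 0.00839). The tetraspanin gene Cd63 was at 42.8 and 20.3 against 288 and 286 CPM (2.98 ± 0.32, adjusted p = 0.00231). Fabp5, the galectin gene Lgals3, the complement subunit gene C1qb and the lysosomal protease gene Ctsd rose by 2.73, 2.07, 1.76 and 1.44 (log2). Scand1 was the gene that fell, from 277 and 230 CPM to 93.0 and 59.8 CPM (-1.77 ± 0.28, edgeR adjusted p = 0.0274).

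Marker lists of other cell types were compared between the fresh diets as well. The summed level of the 8 Kupffer cell markers was 224 and 230 CPM in fresh CSAA and 874 and 580 CPM in fresh CDAA animals. C1qb was the most abundant of them, and Clec4f, at 0 by the gate, and Timd4 had no UMI. Of the list, 4 genes were tested and C1qb rose (median log2 fold change 1.64). Among 8 monocyte markers, led by Lyz2, 7 were tested with a median of 1.33 and none was called. The sums were 6874 and 4270 against 7479 and 13742 CPM. The neutrophil markers, led by S100a8, summed to 221 and 122 against 312 and 586 CPM, and 2 were tested, with a median of 1.48 and none called. The T cell markers, led by Cd8a and with Cd3d, Cd3e and Cd3g at 0 by the gate, summed to 576 and 662 against 467 and 477 CPM, and 4 were tested, with a median of -0.78 and none called. At an unadjusted p under 0.05 were 4 of the 4 Kupffer, 7 of the 7 monocyte, 2 of the 2 neutrophil and 2 of the 4 T cell markers tested, against 457 of all 4554 genes. Their part in the diet differences was not tested.

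The 12 genes had the same direction in the other passing barcodes, and none of them was called in the test of diet by barcode class given below. C1qb was 3.40 times as high in CDAA as in CSAA animals in gated and 2.31 times in other passing barcodes, and Ctsd 2.75 and 3.37 times. Fabp4 had a mean of 4.66 CPM in CSAA and 555 CPM in CDAA animals in other passing barcodes, and 42.8 and 758 CPM in barcodes of 1 to 100 UMIs. Scand1 had 203 and 76.3 CPM in other passing barcodes and 190 and 76.2 CPM in barcodes of 1 to 100 UMIs. In fresh CDAA replicate 2, 1 gated barcode held 295 of the 465 Fabp4 UMIs, and 73 of 88 gated barcodes had at least 1. In fresh CDAA replicate 1, the highest barcode of each gene held 94 of 234 Ctsd, 55 of 140 Gpnmb, 65 of 223 Lgals3 and 72 of 180 Fabp4 UMIs.

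**Figure D5:**
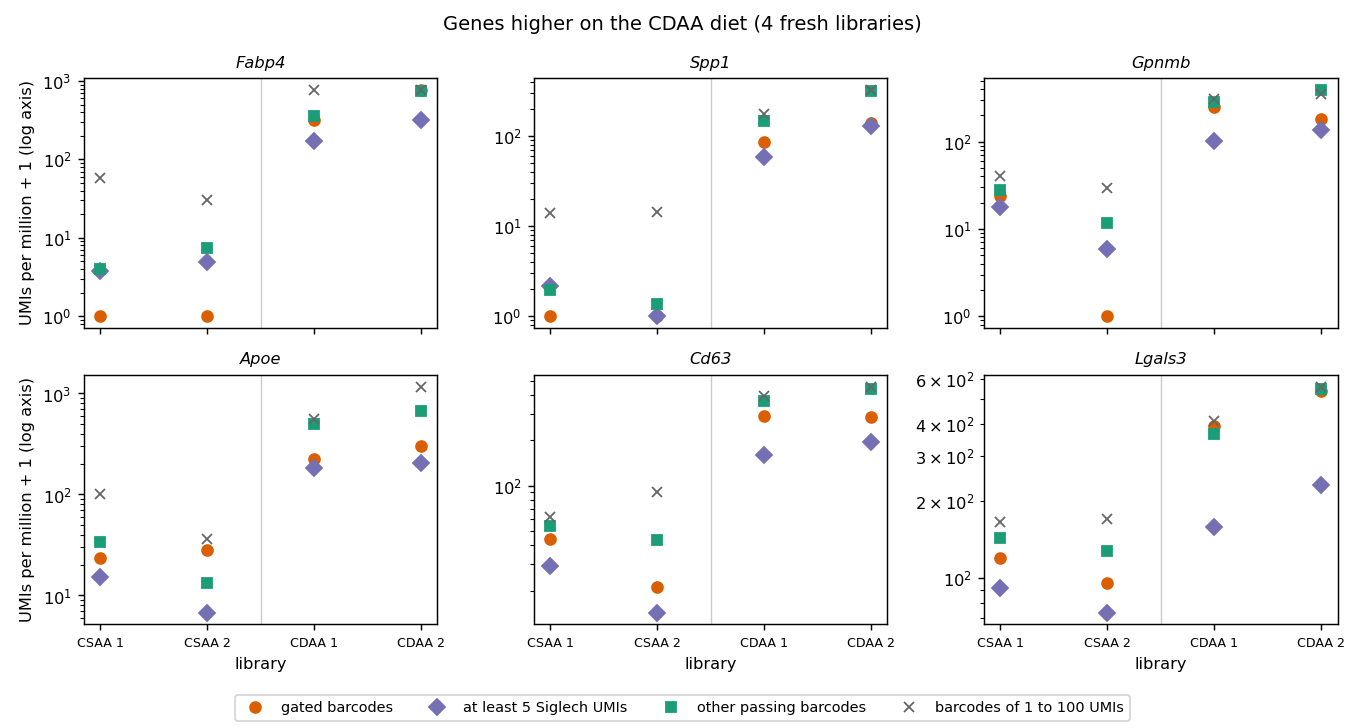
CPM + 1 (log axis) of 6 genes that rose on the CDAA diet, in the 4 fresh libraries, for gated barcodes, barcodes with at least 5 Siglech UMIs, other passing barcodes and barcodes of 1 to 100 UMIs. The 2 CDAA animals lie above both CSAA animals in every barcode group.

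None of 19 tested plasmacytoid dendritic markers was called between the fresh diets (edgeR), and 17 of them were lower in CDAA animals (median log2 fold change -0.48 against -0.01 over all genes tested), 5 of them at an unadjusted p under 0.05, which 457 of the 4554 genes tested reached. Irf8 was at 1145 and 838 CPM in CSAA and at 804 and 447 CPM in CDAA animals (-0.70 ± 0.27, edgeR adjusted p = 0.41). Kmo was at 143 and 87.8 against 89.5 and 44.8 CPM (adjusted p = 0.431). Among barcodes with at least 5 Siglech UMIs, 12 of 21 tested markers had a positive log2 fold change, with a median of 0.02 and none called, and Irf8 was at 1583 and 1477 against 1517 and 1363 CPM. Of the gated barcodes of CDAA replicate 2, 19.3% fresh and 16.8% preserved had at least 2 UMIs of Kmo, Pygm and Gpm6b, the lowest shares of the 8 libraries.

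In the preserved libraries, which came from the same animals, 3 of 5077 genes (0.0591%) were called, all higher in CDAA animals. Fabp4 had 1 UMI in CSAA and 418 in CDAA animals (ratio 146, counting interval 26 to 5771), and Apoe had 2 and 398 UMIs (69.4, 19.1 to 575). In CDAA replicate 1, 1 barcode held 146 of 250 Apoe UMIs. Gpnmb was at 11.5 and 0 CPM in CSAA and at 169 and 149 CPM in CDAA animals (4.11 ± 0.50, edgeR adjusted p = 0.0473). All 3 were also called with at least 5 Siglech UMIs, where 91 of 8311 genes (1.09%) were called in fresh and 108 of 8534 (1.27%) in preserved cells. Of the 12 genes called in fresh gated barcodes, 11 were called in that set as well.

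Whether the diet difference was different in gated and other fresh barcodes was tested in the same way, and 5 of 11108 genes (0.0450%) were called. They were the defensin gene Defb52, the neutrophil gene S100a8, the protease inhibitor gene Serpinb1a, AABR07060872.1 and the embryonic globin gene Hbe1. None of the 5 was called under DESeq2, and each lost its call in at least 1 alternative. The Defb52 UMIs of CDAA animals lay in 2 barcodes, 23 of them in 1 of CDAA replicate 2, and 25 Hbe1 UMIs of CSAA replicate 2 lay in 1 barcode. For AABR07060872.1, 1 barcode of CDAA replicate 1 held 2837 of 3986 UMIs. With at least 5 Siglech UMIs against barcodes without Siglech, 43 of 10425 genes (0.412%) were called, 29 of them with a positive term (the CDAA to CSAA difference in Siglech barcodes minus that without Siglech), and none of the 5 genes above was among them.

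The change with preservation was also compared between the diets. Of 5348 genes, 4 (0.0748%) were called, 3 of them mast cell protease genes. Mcpt1l4 was at 242 and 730 CPM fresh and 32.3 and 188 CPM preserved in CSAA animals, and at 111 and 89.7 CPM fresh and 95.8 and 162 CPM preserved in CDAA animals (difference of log2 fold changes 2.76 ± 0.37, edgeR adjusted p = 6.21e-05). Mcpt8l2 and Mcpt8l3 had differences of 4.50 ± 0.86 and 4.23 ± 0.54, and in preserved CDAA replicate 2, 1 barcode held 45 of 59 and 119 of 161 of their UMIs. Ighm, the heavy chain of immunoglobulin M, had a difference of -1.28 ± 0.24 (edgeR adjusted p = 0.0136). In fresh CDAA replicate 1, 1 barcode held 464 of its 873 UMIs. The natural killer cell markers, whose sums are given above, had a positive difference in 8 of 8 genes tested, with a median of 0.73 and none called, 6 of them at an unadjusted p under 0.05 (edgeR), which 289 of the 5348 genes tested reached. Their part in the result was not tested. Mcpt1l4 and Mcpt8l2 were called with at least 5 Siglech UMIs as well, among 5 of 8838 genes (0.0566%).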

How the data were processed

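Libraries were made with the Chromium Single-Cell 3′ v2 kit. The authors counted UMIs with Cell Ranger 2.1.1 on Rnor6.0 with an Ensembl annotation, and the submitters' processing notes also name bcl2fastq 2.17.1.14 and STAR. The deposited values are UMI counts per gene and barcode, without normalization or selection of cells. Members and gene lists were chosen with earlier results of these data known.

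Barcodes with at least 500 UMIs and under 20% mitochondrial UMIs were kept with Python 3.11.15 and scipy 1.17.1. No doublet caller was run. UMIs were summed per library and group. Totals of 106569 to 796943 UMIs in the gated sums limit the precision. Sums were fitted in R 4.3.3 with edgeR 4.0.16 (quasi-likelihood test, TMM, filterByExpr), with the animal as a block for preservation. DESeq2 1.42.0 was an alternative. CPM is UMIs per 1000000 UMIs of the group's sum. Single values were compared by exact permutation. Each animal gave a fresh and a preserved library, and the deviations of these pairs correlated at 0.25 to 0.53 over 4281 genes. Animals are replicates of a diet.

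In data simulated for the preservation comparison, 197 of 200 genes changed 4-fold were found among 4505 genes, with 4 false calls. For the fresh diets, 164 of 200 were found among 4554 genes, with 6 false calls. The simulation gave all genes the same dispersion (spread between libraries). Apart from the changed genes, it gave each gene the same expected share in every library. It held no differences between animals and no UMIs concentrated in single barcodes, so these counts do not cover such variation. Named genes were the markers and lists, and the 8 largest called changes per direction that were alike in every animal (5 for class differences). Also named were genes of at least 50 CPM in each library in the barcode group ranked, with the highest minimum ratio over libraries. Others are named where their calls needed inspection, after their values were seen. Promoters came from a RefSeq table of build GRCr8. Apart from these promoter sequences, no genome or protein sequence was used here.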

Additional observations from a re-analysis of the deposited data

Results flagged for a closer look

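Among 44 groups of 4 libraries tested for a single value far from the rest (Dixon's test at the 95% level), 7 held one, and chance gives about 1 in 20. CSAA replicate 2 had the highest median percentage of mitochondrial transcripts in gated barcodes, 9.26% fresh and 9.49% preserved. Its preserved library also had 976 CPM of Fosb and 1220 CPM of Jun, far above the others, from 26 gated barcodes. Fosb was at 17.6 CPM in fresh CSAA replicate 1, where the other fresh libraries had 0 to 1.66 CPM. Ccl24 was at 182 CPM in preserved CSAA replicate 1, where 1 barcode held 43 of its 79 UMIs. Ccl1 was at 157 CPM in preserved CDAA replicate 2, where 1 barcode held 65 of its 125 UMIs.

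Of the tested differences between groups, the log2 fold change with preservation in gated minus that in other barcodes was positive for Prss29 (6.10), Ccl22 (3.07) and Cxcl2 (2.1) and negative for Cxcl10 (-3.05), Hbe1 (-2.19), Mzb1 (-1.91), Hmox1 (-1.07) and Fabp4 (-1.04). The CDAA to CSAA log2 difference in fresh gated minus that in other barcodes was positive for Defb52 (11.82), S100a8 (1.35), AABR07060872.1 (1.26) and Serpinb1a (1.04) and negative for Hbe1 (-3.15). The fitted Defb52 value is no bound, because no CSAA gated barcode held a UMI. The log2 fold change with preservation on the CDAA minus that on the CSAA diet was positive for Mcpt8l2 (4.50), Mcpt8l3 (4.23) and Mcpt1l4 (2.76), which fell in both CSAA animals, and negative for Ighm (-1.28).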

How the results depend on the processing

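Named genes kept their direction and their side of the thresholds in 349 repeats, lost their call in 114 and reversed in 10. Fos, Fosb, Jun, Dusp1, Ccl3 and Zfp36 stayed called in every alternative of the preservation test. For the 17 preservation calls, the DESeq2 test gave 11, no low count filter 43, no 2-fold minimum 33, a gate of at least 3 Siglech UMIs 10, no replicate block 6 and at least 5 Siglech UMIs 37. Leaving out 1 animal gave 10 (CDAA replicate 2) to 37 (CSAA replicate 1). For the 12 fresh diet calls, no filter gave 67 and at least 5 Siglech UMIs 91, and leaving out 1 animal gave 15 to 133 (CSAA replicate 2), with 111 without CSAA replicate 1 and 52 without CDAA replicate 1. For the 3 preserved diet calls, the DESeq2 test gave 7, no filter 80, a gate of 3 UMIs 1 and at least 5 UMIs 108, and leaving out 1 animal gave 3 to 152 (CDAA replicate 1), with 12 without CSAA replicate 2 and 24 without CDAA replicate 2. The lone animal left is then assumed to vary like the others.

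For preservation by class, the 8 calls were 0 under DESeq2 (87 genes at an unadjusted p under 0.05), 0 without the block (395) and 0 against Cd79a barcodes (186), and 6 to 10 with an animal left out. For diet by class, the 5 calls were 0 under DESeq2 (80 unadjusted) and 43 with at least 5 Siglech UMIs, and leaving out 1 animal gave 1 (CSAA replicate 2) to 11 (CDAA replicate 1). For preservation by diet, the 4 calls were 2 under DESeq2 and 8 without the filter, and leaving out 1 animal gave 2 (CDAA replicate 1) to 37 (CSAA replicate 2), with 8 without CSAA replicate 1.

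With at least 5 Siglech UMIs, an alternative chosen after seeing the data, the diet difference in share reversed to -1.53 points fresh and -1.98 preserved, the median UMI difference was -519, Ccl24 had -0.32 after preservation, and in the class tests Ccl22 had -1.48, Cxcl2 -1.41, Mzb1 0.014, Fabp4 0.37, Defb52 -2.65, S100a8 -0.14, Serpinb1a -0.56 and Hbe1 0.80. A strict gate, which also limits the sum of markers of other classes to 1 UMI, kept 14 barcodes and gave share differences of -0.0204 and -0.141 points by diet and 0.0483 ± 0.0958 points by preservation (higher in 2 of 4 animals, exact permutation p = 0.5), but gene tests and quality measures could not be run on it. The median UMI difference was -34.1 with at least 1000 UMIs per barcode and ranged from -207 (without CDAA replicate 1) to 139 (without CSAA replicate 2) with 1 animal left out. The diet by class value of Hbe1 ranged from -4.65 (without CSAA replicate 1) to 8.79 (without CSAA replicate 2). The causes were not tested.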

Other observations

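The diets also differed in the 2607 barcodes with at least 5 Siglech UMIs in genes not described above, and the following genes were chosen after their values were seen. In fresh cells the T cell genes Cd3d and Cd3e were lower in CDAA animals (log2 fold changes -1.48 ± 0.23 and -1.79 ± 0.26). The log2 fold change of Cd3g was -0.43 ± 0.33. The gate uses Cd3d, Cd3e and Cd3g, so their values are a description and no test is given. The T cell gene Lef1, which the gate does not use, was also lower (-1.62 ± 0.31, edgeR adjusted p = 0.0287). Cd3d and Cd3e were also low in CDAA animals in barcodes without Siglech, with Cd3e at 231 and 202 CPM in CSAA against 91.0 and 44.0 CPM in CDAA animals, and in barcodes of 1 to 100 UMIs, with Cd3d at 187 and 193 against 98.4 and 53.9 CPM. The neutrophil chemokine genes Cxcl1 and Cxcl2 were lower (-3.57 ± 0.54 and -3.80 ± 0.47), and the macrophage genes Trem2 and Mmp12 were higher (4.05 ± 0.40 and 4.40 ± 0.41). For Cxcl1, Cxcl2, Trem2 and Mmp12, diet values of other barcode groups are not given here. The part of free RNA and of other cell types in their differences was not tested. Cd24 was at 24.7 and 19.8 CPM in fresh CSAA and 126 and 89.4 CPM in fresh CDAA animals, while barcodes without Siglech had 56.8 and 67.7 against 50.2 and 68.3 CPM. The difference between these barcode groups was 2.21 ± 0.22 (log2, edgeR adjusted p = 6.97e-07).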
